A study of Mus musculus with 8 samples.

Results

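The genes described here make GABA (γ-aminobutyric acid), break it down and sense it. The set has 8 genes: Gabra4, Gabra3 and Gabrb1, subunits of the GABA-A receptor; Gabbr1 and Gabbr2, the subunits of the GABA-B receptor; Gad1 and Gad2, the glutamate decarboxylases; and Abat, GABA transaminase. All probe sets annotated to exactly 1 of these genes were taken, which gave 18 of the 45101 probe sets of the array and covered 7 of the 8 genes. Gabbr2 had no probe set named for it and is not analysed here. The set was drawn up with the difference of Gabra4 between the diets known, so the differences of its genes are given as descriptions, with no p-value.

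Islets were from male C57BL/6J mice fed a high fat diet (HF, 45 kcal% fat) or regular rodent chow (NC, 4 kcal% fat) from 4 weeks of age. Mice on both diets carried the natural deletion in Nnt, the gene of nicotinamide nucleotide transhydrogenase, that this strain has. Time on diet was 12 weeks in the sample labels and 14 weeks in the study's methods. There were 4 HF samples (replicates 21, 22, 23 and 24) and 4 NC samples (replicates 1, 2, 4 and 5), and each was RNA of the pooled islets of 2 mice on 1 array, so n counts pools.

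GABA is the main inhibitory transmitter of the brain, and islet beta cells also make it, from glutamate by glutamate decarboxylase. It is released within the islet and acts on endocrine cells through GABA-A receptors, which are chloride channels assembled from several subunits, and through GABA-B receptors, which couple to inhibitory G proteins. GABA transaminase, a mitochondrial enzyme, starts its breakdown through the GABA shunt. In mouse islets the decarboxylase known from earlier work is mainly the product of Gad1 (GAD67), while that of Gad2 (GAD65) is known as an autoantigen of human type 1 diabetes.

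Values are GCRMA intensities, which are background-adjusted, normalized probe set summaries on a linear scale. The median intensity of a sample was 13.0 to 13.8. A probe set was retained where at least 3 of the 8 samples reached an intensity of 8.8, and lower values were treated as too dim to compare. Of the 18 probe sets 7 were retained and 11 were not. Intensities of different probe sets are not on a common scale, so levels are compared between diets within a probe set. Sums over lists of cell markers are given as well, and the brightest probe sets weigh most in them. Islet identity was checked on beta cell markers. All 9 with a probe set named for them were retained, and their summed intensity was 265569 to 278402 in HF samples and 250914 to 256584 in NC samples. Acinar cell markers were also bright, with a sum of 225420 to 255570 in HF samples and 211233 to 262891 in NC samples.

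Gabra4 encodes the α4 subunit of the GABA-A receptor, a subunit known from receptors outside synapses. It lies beside Gabrb1, the gene of the β1 subunit, in a cluster of subunit genes on mouse chromosome 5. In RefSeq (build GRCm38.p6) they are transcribed from opposite strands, and the first Gabrb1 start lies 387 bases from the Gabra4 start, so that their first stretches overlap. The 250 bases before each start are shown because Gabra4 was retained and higher in HF islets, while no probe set of its neighbour Gabrb1 was retained. They lie at chr5:71658309-71658558 on the minus strand for Gabra4 and at chr5:71657671-71657920 on the plus strand for Gabrb1, with CG dinucleotides in capitals.
Gabra4: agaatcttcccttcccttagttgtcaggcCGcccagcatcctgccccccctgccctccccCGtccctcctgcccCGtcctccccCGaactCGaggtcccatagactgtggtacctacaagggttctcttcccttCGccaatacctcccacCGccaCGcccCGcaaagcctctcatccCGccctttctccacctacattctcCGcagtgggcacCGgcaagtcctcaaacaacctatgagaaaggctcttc
Gabrb1: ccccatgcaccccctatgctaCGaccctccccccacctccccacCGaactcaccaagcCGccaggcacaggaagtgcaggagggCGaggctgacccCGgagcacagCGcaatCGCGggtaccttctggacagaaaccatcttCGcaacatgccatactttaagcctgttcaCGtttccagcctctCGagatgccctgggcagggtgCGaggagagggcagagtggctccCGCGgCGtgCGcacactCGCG
The Gabra4 window holds 12 CG dinucleotides and the Gabrb1 window 18, against a median of 6 over 32851 RefSeq windows of the same length. At least 12 were in 33.5% of all windows and at least 18 in 21.7%. Searched on both strands, TATAAA was in neither window and in 12.4% of all windows. CCAAT was in the Gabra4 window, not in the Gabrb1 window, and in 33.9% of all. GGGCGG was in the Gabra4 window, not in the Gabrb1 window, and in 32.7% of all. These are matches of letters and no measure of factor binding.

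Both Gabra4 probe sets were higher in HF islets, and no HF sample overlapped an NC sample on either. On 1433707_at the intensities were 198, 576, 365 and 360.0 in HF replicates 21, 22, 23 and 24, and 63.2, 70.4, 49.95 and 73.3 in NC replicates 1, 2, 4 and 5. The lowest HF sample, replicate 21, was still well above the highest NC sample, and replicate 22 stood highest. The means were 375 ± 155 in HF and 64.2 ± 10.4 in NC (SD, n = 4 each), a log2 difference of 2.46 (standard error 0.30) or 5.51-fold.

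On the other Gabra4 probe set, 1429330_at, the intensities were 57.3, 122, 60.7 and 69.9 in the HF samples in the same order, and 35.1, 32.5, 41.7 and 30.7 in the NC samples. Replicate 22 was again the highest HF sample and replicate 21 the lowest, while the NC samples kept no common order on the probe sets, with replicate 4 lowest on the first and highest on the second. The means were 77.5 ± 30.2 in HF and 35.0 ± 4.82 in NC, a log2 difference of 1.09 (standard error 0.23) or 2.12-fold. By size of rise these probe sets held places 3 and 62 among the 25645 retained, which is the kind of value that led to the choice of Gabra4.

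The size of the Gabra4 difference thus depended on the probe set. Within a sample, the log2 ratio of 1433707_at to 1429330_at was 1.79, 2.24, 2.59 and 2.37 in the HF samples and 0.85, 1.12, 0.26 and 1.26 in the NC samples. The HF samples all had the larger ratio, with a mean of 2.24 ± 0.34 in HF and 0.87 ± 0.44 in NC (SD, n = 4 each). Unequal change on the same arrays is what this ratio shows, and the transcript forms that each probe set reads were not resolved here. The spread on the log2 scale was also larger in HF than in NC samples on both, with SDs of 0.63 and 0.25 on 1433707_at and of 0.50 and 0.19 on 1429330_at.

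A call across all probe sets needed an adjusted p under 0.05 in limma and a fold change of at least 1.5. Both Gabra4 probe sets met it in the higher direction, and none of the other 5 retained probe sets of the set met it in either direction. Over the 25645 retained probe sets, 0.643% met it as higher and 3.05% as lower. All 4 HF values lay above all 4 NC values in 6.8% of the retained probe sets and below them in 7.83%. Among the 7 retained here these were 2, both of Gabra4, and 0. Since the set was chosen on this contrast, nothing is read from these counts. Without HF replicate 24, or without NC replicate 1, 2 or 5, 1429330_at no longer met the call and 1 probe set, 1433707_at, was left.

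**Figure D1:**
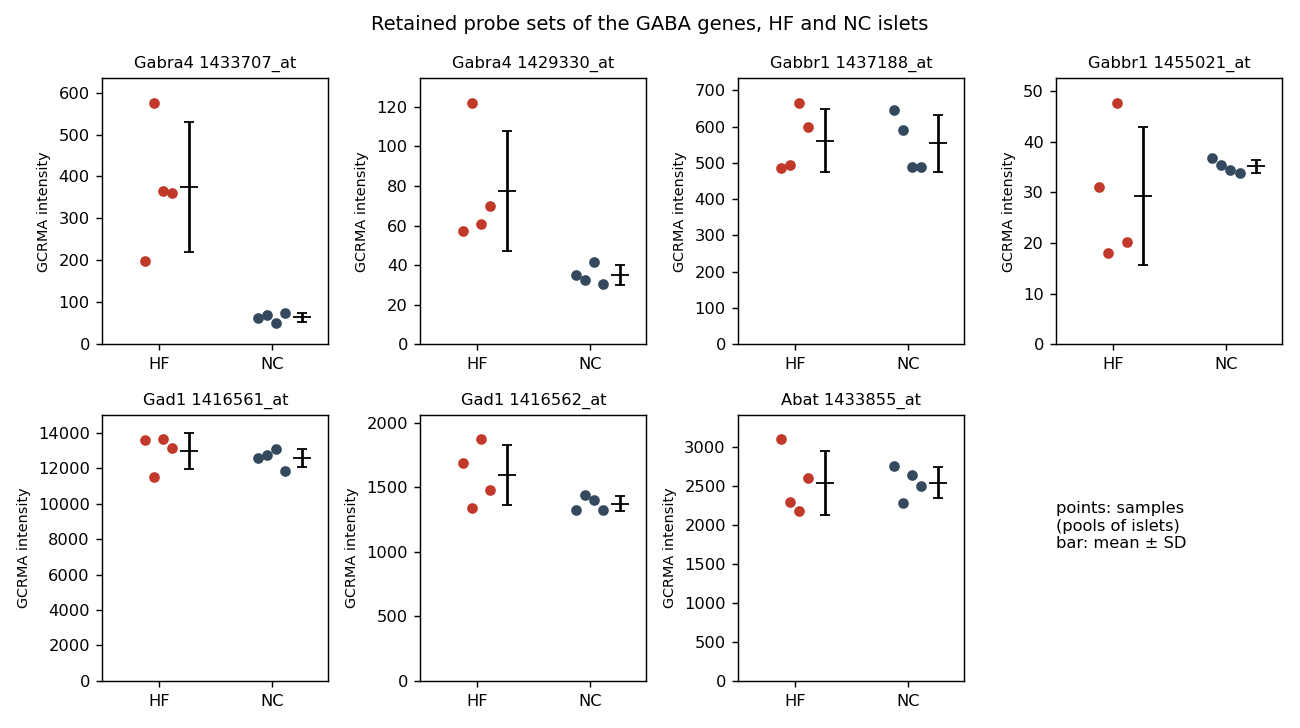
GCRMA intensity (y axis, from 0, own scale for each panel) of the 7 retained probe sets in the 4 HF and 4 NC samples (x axis), with mean and SD as bars. The HF and NC points are apart for both Gabra4 probe sets (57.3 to 122 in HF against 30.7 to 41.7 in NC on the dimmer one) and overlap for Gabbr1, Gad1 and Abat.

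The other GABA-A receptor subunits of the set were dim on every array. The 2 probe sets of Gabra3, the X-linked gene of the α3 subunit, had 6.77 to 7.30 in HF and 6.85 to 6.99 in NC on 1436957_at, and 4.31 to 4.49 in HF and 4.36 to 4.39 in NC on 1421263_at. Gabrb1, whose protein is one of the β subunits that pair with α subunits, had 4 probe sets. The brightest, 1443205_at, had 6.13, 6.37, 6.17 and 6.63 in HF samples and 6.38, 6.17, 6.24 and 6.17 in NC samples. The diets overlapped on all 4, and the log2 differences were 0.05 or smaller in size. No Gabrb1 level that could be compared was thus measured on either diet beside the higher Gabra4 values.

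Dim readings here moved with the array. Of the 11 probe sets that were not retained, 10 had their highest value in HF replicate 24, as did 74.5% of all 19456 probe sets that were not retained. The exception was 1422051_a_at of Gabbr1, with 7.30, 7.71, 7.26 and 7.45 in HF samples and 7.43, 7.35, 9.42 and 10.2 in NC samples. NC replicates 4 and 5 alone passed the limit of 8.8 on it, which was too few for retention. Log2 differences of the 11 lay between -0.19 and 0.05.

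The 16 further GABA-A and rho receptor subunit genes were listed to see which partners of Gabra4 the arrays read. Of these, 12 had probe sets named for them, 27 in all, and none was retained, with intensities from 3.24 to 8.66. Gabra2 and Gabrg1, genes of an α and a γ subunit in the cluster on chromosome 5 with Gabra4 and Gabrb1, were among them. On the brightest Gabrg1 probe set, 1460408_at, HF samples had 8.11 to 8.66 and NC samples 8.17 to 8.38. The other 4 listed genes are not analysed here. Among the subunit genes analysed, Gabra4 was the only one with retained probe sets. A dim reading can come from a probe set that binds its transcript poorly as well as from a low transcript level, which cannot be told apart here.

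**Figure D2:**
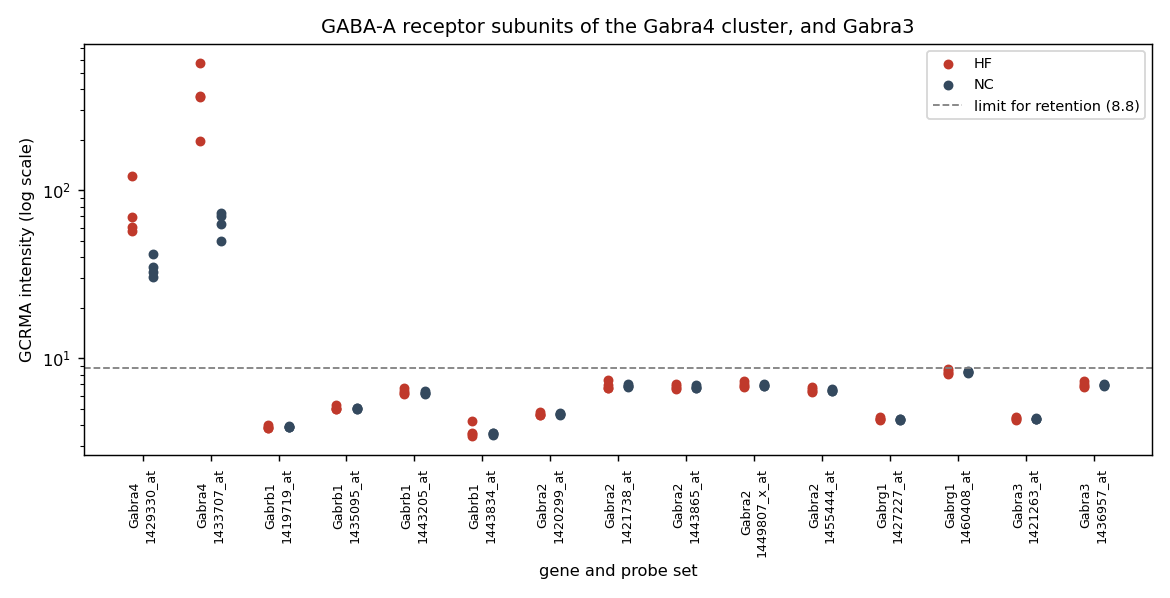
GCRMA intensity (y axis, log scale) of each probe set (x axis) of Gabra4, its cluster neighbours Gabrb1, Gabra2 and Gabrg1, and of Gabra3. Points are the 4 HF and the 4 NC samples, and the dashed line marks the limit of 8.8. Only the 2 Gabra4 probe sets lie above it, and the other 13 lie below in all 8 samples.

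Gabbr1, the subunit of the GABA-B receptor that binds GABA, was retained on 2 of 4 probe sets. On the brighter, 1437188_at, the intensities were 487, 494, 667 and 599.7 in HF samples and 647, 590.3, 488 and 489.9 in NC samples. The diets covered nearly the same range, with means of 562 ± 86.9 in HF and 554 ± 78.5 in NC (SD, n = 4 each) and a log2 difference of 0.02 (standard error 0.14).

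The dimmer Gabbr1 probe set, 1455021_at, had 31.2, 18.03, 47.8 and 20.2 in HF samples and 36.9, 35.4, 34.4 and 33.9 in NC samples. HF replicate 23 lay above every NC sample and the other HF samples below every one. The log2 difference was -0.37 (standard error 0.28), with an SD on the log2 scale of 0.64 in HF and 0.05 in NC. Without HF replicate 23 it was -0.64 and without HF replicate 22 it was -0.18, so that single HF pools set its size. Its 2 other probe sets were not retained.

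Gad1, the gene of the decarboxylase that makes GABA, was retained on both probe sets. On 1416561_at the intensities were 13580, 11480, 13636 and 13166 in HF samples and 12558, 12737, 13075 and 11861 in NC samples. The ranges overlapped and the means were 12966 ± 1012 in HF and 12558 ± 511 in NC (SD, n = 4 each), a log2 difference of 0.04 (standard error 0.07). With samples scaled to equal means of the beta cell markers, this difference was -0.06.

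On the second Gad1 probe set, 1416562_at, the intensities were 1689, 1338, 1872 and 1477 in HF samples and 1323, 1441, 1399 and 1326 in NC samples. Replicates 21, 23 and 24 of HF lay above every NC sample, and HF replicate 22 lay among the NC samples. The log2 difference was 0.21 (standard error 0.10) or 1.15-fold. HF replicate 22, the highest HF sample on both Gabra4 probe sets, was the lowest HF sample on both Gad1 probe sets.

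Gad2, the gene of the other decarboxylase, was not retained on either probe set. On 1429589_at it had 8.24, 8.63, 8.08 and 8.76 in HF samples and 8.50, 8.31, 8.47 and 8.14 in NC samples, which lay just under the limit and overlapped. On 1421978_at it had 4.43 to 4.65 in HF and 4.46 to 4.55 in NC.

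Abat, which turns GABA to succinic semialdehyde, was retained on 1 of 2 probe sets. On 1433855_at the intensities were 3094, 2285, 2180 and 2599 in HF samples and 2746, 2280, 2635 and 2497 in NC samples. The means were nearly the same, 2539 ± 411 in HF and 2540 ± 201 in NC (SD, n = 4 each), with a log2 difference of -0.01 (standard error 0.12). HF replicate 21 was the highest and HF replicate 23 the lowest of all 8 samples. The other probe set, 1422226_at, had 4.14 to 4.30 in HF and 4.18 to 4.25 in NC.

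A further 74 genes of GABA signalling were listed by role and tested, the subunit genes above included. Of these 64 had a probe set named for them alone and 43 were retained, each counted by whichever of its retained probe sets had the highest mean. In HF islets 0 rose, 1 fell and 42 did not pass the test (limma, adjusted over all retained probe sets). Without adjustment or fold limit, 13 of the 43 had a p under 0.05 in limma, as did 2773 of all 12308 genes counted in this way (22.5%), and the like counts given below for single lists stand against that share. Over all 12308 genes, 0.447% rose and 4.28% fell. The median log2 difference was 0.02 over the 43 genes and 0.00 over all genes.

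The gene that fell was Gnai1, which encodes an inhibitory G protein α subunit of the kind that GABA-B and many other receptors use. Its probe set 1454959_s_at had 1281, 1413, 1345 and 1194 in HF samples and 1897, 2505, 2034 and 2111 in NC samples. Every HF sample lay below every NC sample, with a log2 difference of -0.70 (standard error 0.10, adjusted p = 0.00569 from limma). A second probe set, 1434440_at, fell by 0.67 on the log2 scale (adjusted p = 0.00376 from limma), and the third, 1427510_at, had -0.34 and did not pass. Of the other inhibitory subunits, Gnai2 had a log2 difference of -0.39 (adjusted p = 0.0222 from limma), which was under the fold limit, Gnai3 had -0.03 and Gnao1 had -0.09. In RNA of whole islets, fewer cells of a type and less RNA per cell cannot be told apart.

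Markers of stromal, vascular, immune, glial and nerve cells had lower summed intensities in the HF samples, in which Gnai1 was also lower. All 8 fibroblast and stellate cell markers fell, with a summed intensity of 1979 to 3697 in HF and 9606 to 14641 in NC. Of 8 endothelial markers 2 fell, with sums of 12823 to 14396 in HF and 16738 to 19443 in NC. Of 7 macrophage and leukocyte markers 5 fell (3656 to 5179 in HF and 6609 to 8560 in NC), and of 6 Schwann and glial cell markers 4 fell (476 to 627 in HF and 1337 to 1474 in NC). Of 8 neuron markers 2 fell, with sums of 1666 to 2903 in HF and 5053 to 7972 in NC, and Chat and Slc18a3, which mark cholinergic nerves, were under the limit. The part of these cells in the Gnai1 result was not tested. Gfap of the glial list was under the limit. Of the 9 beta cell markers none rose or fell by the test (2 had a p under 0.05 in limma without adjustment, near the share of 22.5% over all genes), with a median log2 difference of 0.11. Their summed intensity, given above, was higher in every HF sample than in every NC sample. Iapp and Ins2, the brightest in that sum, had log2 differences of 0.10 and 0.11. Among all retained probe sets, 6.8% had every HF value above every NC value. None of 4 alpha cell, 5 delta and PP cell, 7 acinar cell and 5 duct cell markers rose or fell by the test. Of them 2, 4, 2 and 1 had a p under 0.05 in limma without adjustment, where 22.5% of all genes did. The alpha cell list and the delta and PP cell list were above that share. Log2 differences of the delta and PP cell markers lay between -0.45 and -0.09. The delta and PP cell sum was 124427 to 138223 in HF and 146024 to 149608 in NC, the alpha cell sum 169891 to 181612 in HF and 173559 to 176305 in NC, and the duct cell sum 2854 to 3417 in HF and 2992 to 3469 in NC. Bright probe sets outweigh dim ones in these sums. In the alpha cell list Gcg and Ttr had log2 differences of 0.01 and 0.00, and Irx1 and Irx2 had -0.81 and -0.78. In the duct cell list Krt7, Sox9 and Cftr had -0.03, -0.04 and 0.01, and Krt19 and Muc1 had -1.77 and -0.70. Only Krt7 was bright, with 2819 to 3380 in HF and 2946 to 3393 in NC. Sox9 had 10.95 to 12.4 in HF and 11.9 to 12.7 in NC, and Cftr 10.1 to 12.9 and 10.8 to 12.0. These lay near the limit for retention, so no lack of change is read from them. Krt19 had 5.15 to 8.53 in HF, all under that limit, and 10.7 to 40.4 in NC. Muc1 had 4.22 to 10.7 in HF and 5.56 to 13.5 in NC. The part of any of these cells in the values of Gabra4 or the other GABA genes was not tested.

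Among the remaining GABA-B receptor partners and effectors, 9 genes were retained of 13 with a probe set, Gnai1 included. Kctd12b and Kctd8, of the family of auxiliary GABA-B subunits, had log2 differences of -0.02 and 0.35 and did not pass. The probe sets of Kctd12b disagreed, since 1442368_at had 927, 813, 1022 and 751 in HF samples and 600.5, 634, 622 and 673 in NC samples. All HF samples were higher on it, with a log2 difference of 0.46 (adjusted p = 0.0332 from limma), which was under the fold limit. Kcnj3 and Kcnj6, subunits of the potassium channels that GABA-B receptors open, had 19.5 and 10.3 in HF and 20.5 and 9.68 in NC as mean intensities, while Kcnj5 and Kcnj9 were not retained.

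Of the GABA transporters, the plasma membrane carriers Slc6a11, Slc6a12 and Slc6a13 and the vesicular carrier Slc32a1 were not retained. The 4 retained genes of this list did not pass the test (3 had a p under 0.05 in limma without adjustment, where 22.5% of all genes did). Aldh5a1, which takes the product of Abat on to succinate, had 750 ± 53.9 in HF and 639 ± 85.4 in NC (SD, n = 4 each), a log2 difference of 0.24. Aldh9a1, an aldehyde dehydrogenase that can form GABA from putrescine, had 7989 ± 502 in HF and 6769 ± 774 in NC, also 0.24. Lrrc8a, a subunit of the volume-regulated anion channel, had 745 ± 55.0 in HF and 888 ± 41.6 in NC, with all HF samples below all NC samples and a log2 difference of -0.26 (adjusted p = 0.0719 from limma).

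None of the 9 retained genes of glutamate and glutamine supply passed (2 had a p under 0.05 in limma without adjustment, near the share of 22.5% over all genes). The brightest were Glul, glutamine synthetase, with 11983 ± 503 in HF and 12761 ± 1144 in NC, and Slc38a2, an amino acid transporter, with 6566 ± 1550 in HF and 6361 ± 1187 in NC (SD, n = 4 each). Slc1a5, a glutamine transporter, was dim, with 12.9 ± 2.44 in HF and 20.5 ± 5.44 in NC and a log2 difference of -0.66 (adjusted p = 0.109 from limma).

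None of 16 genes of receptor anchoring and traffic passed (4 had a p under 0.05 in limma without adjustment, also near that share). Gabarap, a protein that binds GABA-A receptors and serves autophagy, had 17018 ± 554 in HF and 16266 ± 458 in NC (SD, n = 4 each). Gabarapl2 of the same family had 5978 ± 143 in HF and 5523 ± 422 in NC. The largest difference was that of Kif5a, a kinesin of neurons, with 6.95, 20.98, 34.3 and 21.2 in HF samples and 80.4, 71.1, 54.2 and 34.5 in NC samples. The diets did not overlap, but HF replicate 23 and NC replicate 5 nearly met, and the log2 difference of -1.66 did not pass (standard error 0.48, adjusted p = 0.0911 from limma).

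Of 5 genes that set the chloride gradient, on which the direction of GABA-A currents depends, none passed. Slc12a2, the importer NKCC1, had 819 ± 136 in HF and 805 ± 116 in NC, and Slc12a5, the neuronal exporter KCC2, had 189 ± 12.7 in HF and 179.7 ± 25.1 in NC (SD, n = 4 each). The exporter Slc12a7 (KCC4) had 1037, 1146, 1021 and 1135 in HF samples and 891, 851, 862 and 846 in NC samples. Every HF sample was higher, with a log2 difference of 0.33 (standard error 0.06, adjusted p = 0.0157 from limma) and of 0.50 on its other probe set (adjusted p = 0.00863 from limma), both under the fold limit of 1.5.

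**Figure D3:**
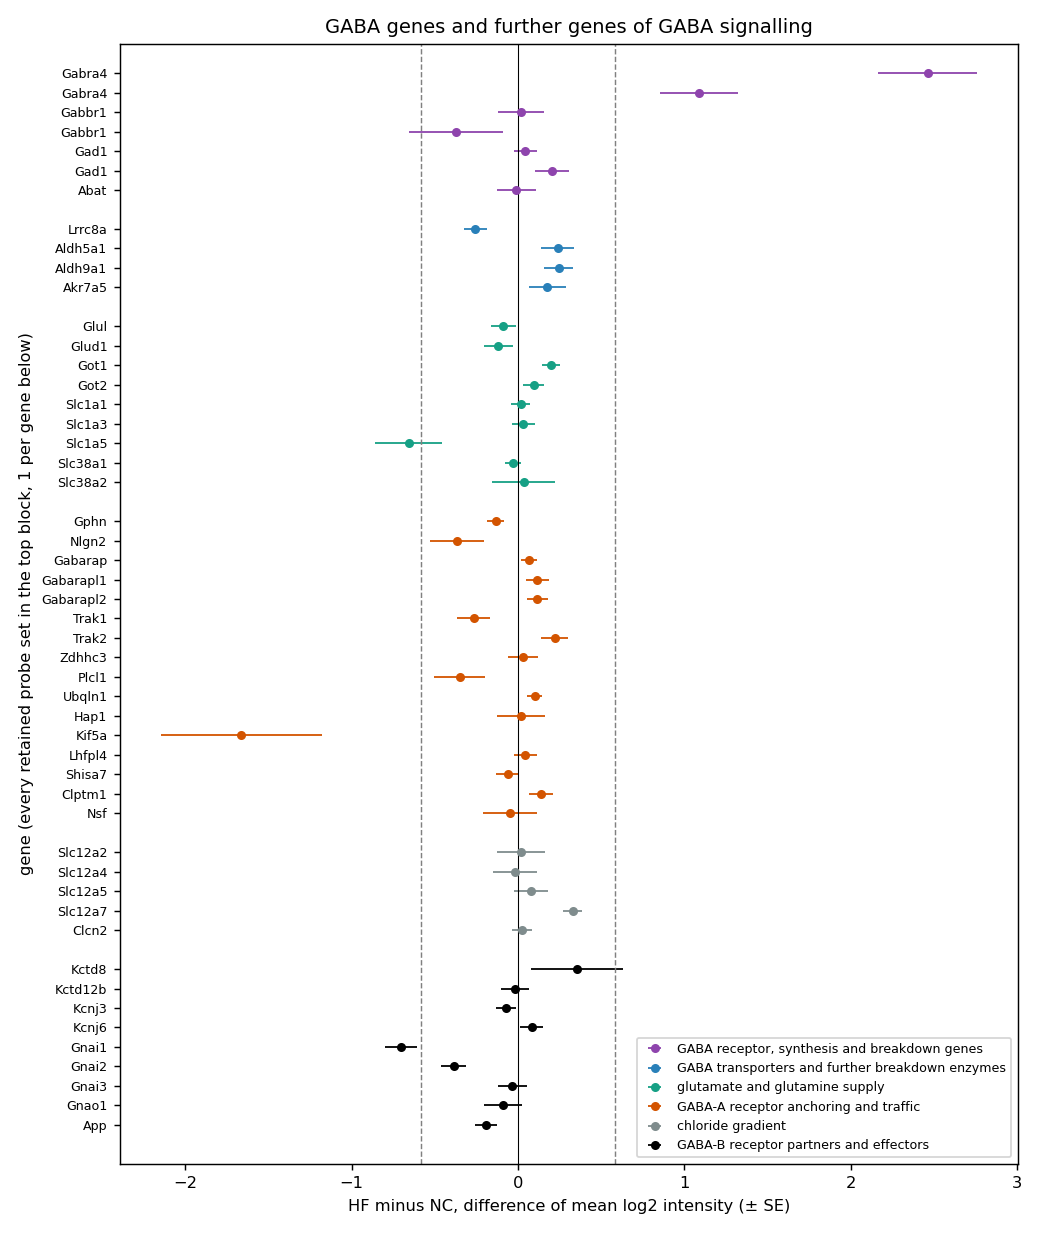
Difference of mean log2 intensity, HF minus NC, with its standard error (x axis), for the 7 retained probe sets of the set (top block) and 1 probe set for each of 43 further genes (y axis, by list). Dashed lines mark a fold change of 1.5. The 2 Gabra4 points lie right of the lines at 2.46 and 1.09, and Gnai1 (-0.70), Slc1a5 (-0.66) and Kif5a (-1.66) left of them.

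To place Gabra4 among all genes, the genes whose values ran closest to it over the 8 samples were found, by the root mean square difference of log2 values after each probe set's own mean was taken off. For 1433707_at these were Aldh1a3, a retinoic acid synthesis enzyme (0.30), Ppargc1a, the transcriptional coactivator PGC1α (0.37), and Tnfrsf23, a decoy receptor for the ligand TRAIL (0.41). Aldh1a3 had 61.0, 249.8, 199 and 208 in HF samples and 26.9, 41.5, 28.1 and 37.6 in NC samples, with HF replicate 21 lowest and replicate 22 highest of the HF samples as for Gabra4. For 1429330_at they were Tnfrsf22, another such decoy receptor (0.19), Tent5a, a poly(A) polymerase (0.19), and Tnfrsf11b, osteoprotegerin (0.20), which unlike the other 5 genes did not meet the call. Tnfrsf22 had 132, 259, 178 and 174 in HF samples and 93.7, 87.4, 88.0 and 95.0 in NC samples. In all 6 genes every HF value exceeded every NC value and HF replicate 22 was the highest, and choosing genes by likeness favours both.

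**Figure D4:**
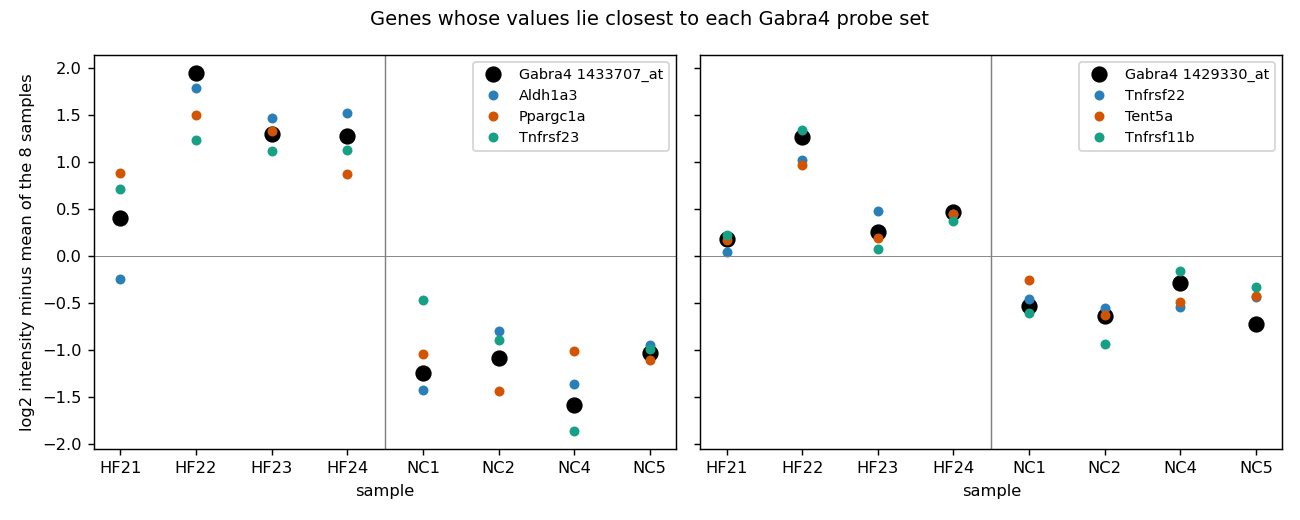
Log2 intensity minus the mean of the 8 samples (y axis) in each HF and NC sample (x axis), for each Gabra4 probe set (black) and the 3 genes closest to it (colours). In every gene shown HF replicate 22 is the highest sample, and all HF points lie above all NC points of the same gene.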

How the data were processed

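Islet RNA of 4 HF and 4 NC samples was read on mouse expression arrays, 1 array per sample. From the scans, the authors computed a GCRMA summary of each probe set in ArrayAssist Lite, which corrects background and normalizes over arrays. The deposited intensity values are linear, as their range of 1.33 to 142713 shows, and were taken to log2 without further normalization. Of 45101 probe sets, 34958 are annotated to 1 gene. Present flags were not used here. Instead 25645 probe sets with at least 3 of 8 values of 8.8 or more were retained, and the limit can leave out low transcripts. HF and NC were compared with limma 3.58.1 in R 4.3.3 (lmFit, eBayes, Benjamini-Hochberg over all retained probe sets), which was tested on simulated data. SAM, the test of the study, rests on regroupings of the samples and was not run. The number of arrays limits the precision, and p-values measure the spread between pools.

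The genes and lists were chosen with earlier results of these data known. All probe sets of the set are named. Of further lists, genes that passed are named, or else the 2 with the highest mean, along with Gabra2, Gabrg1 and the 3 genes closest to each Gabra4 probe set. Aldh5a1, Slc1a5, Kif5a, Slc12a5 and the GABA-B partners other than Gnai1 fall outside that rule, as do the named alpha and duct cell markers. These were chosen after their values were seen. Promoter windows are those of RefSeq, and 7 of the 8 genes had one. Alternatives were other filters, scalings, priors and fold limits, the methods' t-test, folds of linear means, values under the limit raised to it, every probe set of a gene, and leaving out each sample. The methods' t-test is the unpaired t-test that the methods name for differences between 2 groups, while SAM was the study's test of the arrays.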

Additional observations from a re-analysis of the deposited data

Results flagged for a closer look

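In all, 50 groups of 4 samples were checked for a sample far from the rest. They covered every probe set of the set, Gnai1 and the genes closest to Gabra4, and 1 had such a sample. The nominal rate of the rule is about 1 in 20, and the rate in these data was not measured. The flagged group was the HF group of Aldh1a3, the gene closest to Gabra4 1433707_at. HF replicate 21 had an intensity of 61.0, while the other HF samples had 199 to 249.8. No group of the GABA genes themselves was flagged.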

How the results depend on the processing

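The 2 Gabra4 probe sets that met the call as higher were 1 without a filter on low values and 1 by the methods' t-test after adjustment, and 1 to 2 when a sample was left out. In each case of 1 it was 1429330_at that was lost and 1433707_at that still met the call. Since Gabra4 was chosen on this contrast, nothing is read from its meeting the call in these alternatives. With a sample left out, the log2 difference lay between 2.22 and 2.74 on 1433707_at, and between 0.84 and 1.21 on 1429330_at. HF replicate 22 was absent from the lowest of these values and HF replicate 21 from the highest. Of 91 alternative values of the 7 retained differences 1 moved by more than the spread between samples, that of Gad1 1416561_at (-0.06 with samples scaled on the beta cell markers). That scaling put the median log2 difference of all retained probe sets at -0.09, against 0.02 as deposited. Of the further genes, 1 was higher without the fold limit (Slc12a7), and the lower ones were 2 without it (Gnai1 and Gnai2) and 3 by the methods' t-test without adjustment (Gnai1, Kif5a and Slc1a5). Leaving out any one sample gave 0 higher and 1 lower, Gnai1. Over all probe sets, the 165 higher were 85 without a filter, 332 and 59 by the methods' t-test before and after adjustment, 520 without the fold limit, 95 with scaling on beta cell markers, and 93 (without HF replicate 24 or NC replicate 1) to 158 with a sample left out, with 101 without NC replicate 2 and 109 without HF replicate 21. The 783 lower were 573 without a filter, 1059 and 450 by the t-test before and after adjustment, and 1058 without the fold limit. They were 1119 with scaling on beta cell markers, and 543 to 759 with a sample left out. No paired analysis was possible because HF and NC samples share no replicate number. Dim probe sets limit what can be said of Gabra3, Gabrb1 and Gad2, and 4 pools a diet limit the precision.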
